A study of Mus musculus with 9 samples.

Results

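The cluster named S3 holds the nuclei that the authors labelled gamma motor neurons (gamma MNs). Its members were taken as every nucleus whose cluster name in the deposited annotation is S3, with no expression value used to choose them. They number 2241 of the 16042 cholinergic nuclei (14%) and of the 34231 annotated nuclei in all, and none of the other 20 cholinergic clusters is larger. All 2241 carry the authors' gamma label, which 1 nucleus of S1 and 1 of S2 carry too. The other skeletal MN clusters are S1, of whose 1528 nuclei 1526 are labelled Type 3, and S2, of whose 1285 nuclei 1283 are labelled alpha, and S3 makes up 44.3% of these skeletal MNs.

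Gamma MNs are the small motor neurons that contact the intrafusal fibers inside muscle spindles, and they set how strongly a spindle reports stretch of the muscle. Alpha MNs contact the extrafusal fibers that produce force. Both lie together in the same ventral horn pools and use acetylcholine, so they have been told apart by size and by genes such as *Esrrg*, *Gfra1*, *Wnt7a* and *Htr1d*.

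The nuclei came from spinal cords of Chat-IRES-Cre::Sun1-sfGFP mice, 8 weeks old, heterozygous for Chat-iCre and for the SUN-SfGFP reporter in every group. There were 3 pools of 4 mice each: pool 1 with 2 males and 2 females, pool 2 with males and pool 3 with females. Cords of a pool were parted at 3 levels (cervical, thoracic and lumbar/sacral), which gave 9 libraries of sorted GFP+ DRAQ5+ single nuclei, 3 for each region, and same-numbered libraries share their mice. Because Cre is under the control of the *Chat* gene and the mark is permanent, any cell that had *Chat* active at some earlier time is marked too.

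S3 was found in every library, with 343, 58 and 245 nuclei in cervical libraries 1 to 3, 105, 342 and 117 in the thoracic libraries and 396, 346 and 289 in the lumbar/sacral libraries. The values are UMI counts corrected for depth by the authors, so they are treated here as a score, summed over the S3 nuclei of a library and given as CPM, the corrected counts of a gene per 1000000 of that sum. The median S3 nucleus held 7323 corrected counts, with library medians of 4909 to 16190 and the 3 lumbar/sacral libraries at 4909 to 7310.5. Of the 9 S3 sums, the smallest held 930500 corrected counts. There were 8 S3 nuclei whose barcode occurred in a second library and 33 S3 nuclei (1.47%) called doublets, and both kinds were kept.

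A pair of libraries went against their labels. *Hoxc5*, a Hox gene whose level differs along the cord, stood in S3 at 17.4 and 22.2 CPM in the libraries labelled cervical 1 and 3 but at 69.9 CPM in the library labelled cervical 2. It stood at 107 and 95.7 CPM in the libraries labelled thoracic 1 and 3 but at 10.9 CPM in the library labelled thoracic 2. Visceral MNs, which are most frequent in thoracic cord, made up 56.2% of cholinergic nuclei in the library labelled cervical 2, against 38.1 and 26.3% in cervical 1 and 3. They made up 23.1% in the library labelled thoracic 2, against 56.0 and 60.1% in thoracic 1 and 3. The labels were used as given, and each regional result is also given without both male libraries. In the library labelled cervical 2 the 71 nuclei of S2 also stood apart, with *Tns1*, a skeletal MN marker, at 80.5 CPM against 311 to 450 CPM in the other 8 libraries, while the skeletal MN markers summed over S3 there (923 CPM) lay within the range of the other libraries.

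The 4 marker genes of S3 separated it from every other cholinergic cluster. *Nrp2*, which encodes neuropilin-2, a co-receptor for class III semaphorins (chr1:62703285-62818695 in GRCm38, plus strand), stood at 395, 431 and 532 CPM in the lowest, median and highest S3 library. The mean level was 3.79 ± 3.01 CPM in S1 and 37.6 ± 26.5 CPM in S2 (SD, n = 9 libraries). In what follows, 3 values for S3 are likewise its lowest, median and highest library, and levels of other clusters are means with the SD over libraries. Visceral MNs also held *Nrp2*, with V10 as the next highest cluster at 239 ± 56.4 CPM (n = 7). The S3 libraries (395 to 532 CPM) lay above those of V10 (148 to 315 CPM), V2 (44.5 to 302 CPM) and V5 (65.6 to 319 CPM).

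*Plekhg1*, which encodes a guanine nucleotide exchange factor, stood at 409, 531 and 741 CPM in S3 (lowest, median and highest library), against 105 ± 28.9 CPM in S1 and 23.8 ± 19.0 CPM in S2. *Dkk2*, a secreted modulator of Wnt signalling, stood at 95.4, 188 and 301 CPM in S3, and the next cluster was the interneuron cluster I1 with a mean of 10.9 ± 4.87 CPM. *Col27a1*, a fibrillar collagen gene, stood at 97.8, 130.0 and 181 CPM in S3, with V3 next at 30.7 ± 15.4 CPM. In each of the 9 libraries S3 was the highest cluster for all 4 genes. The excess over the mean of S1 and S2 on the log2(CPM + 5) scale was 4.69 ± 0.50 for *Nrp2*, 3.37 ± 0.57 for *Plekhg1*, 4.95 ± 0.39 for *Dkk2* and 4.20 ± 0.19 for *Col27a1* (SD over 9 libraries). These genes took part in making the cluster, so their values describe it and carry no test.

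**Figure D1:**
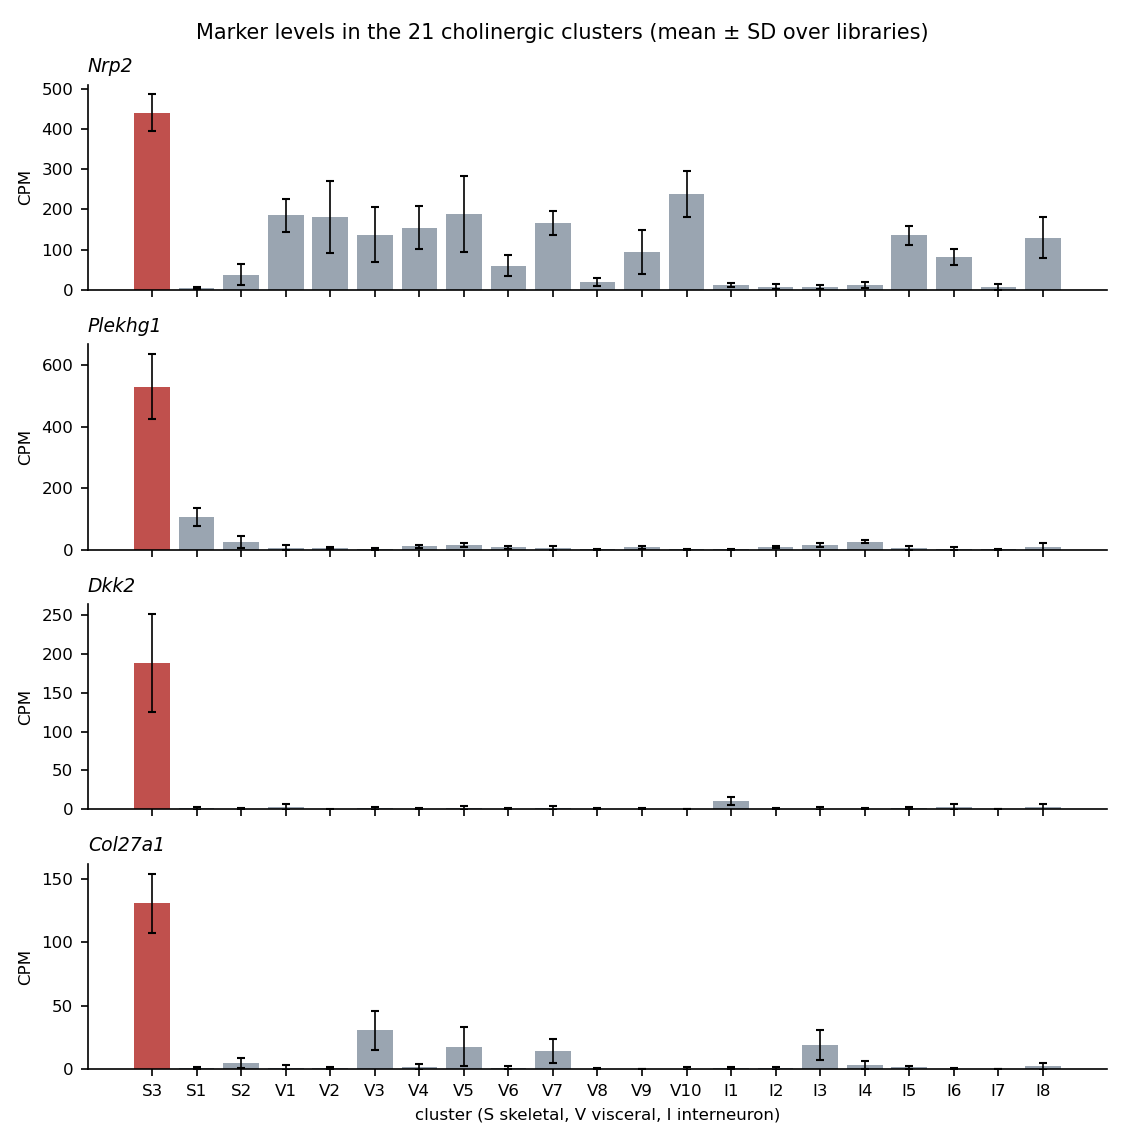
Levels of *Nrp2*, *Plekhg1*, *Dkk2* and *Col27a1* (CPM, linear axis from 0) in the 21 cholinergic clusters, as bars at the mean with the SD over libraries. S3 is the highest cluster in each panel, *Nrp2* is also present in visceral clusters with V10 at 239 CPM, and *Plekhg1* is also present in S1 at 105 CPM.

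Within S3, the markers were unevenly spread over nuclei. *Nrp2* had at least 1 corrected count in 93.9% ± 4.28 of S3 nuclei and *Plekhg1* in 95.5% ± 3.98 (SD, n = 9), while *Dkk2* was found in 51.5% ± 12.3 and *Col27a1* in 52.9% ± 8.19. After each nucleus was thinned to 3200 counts the shares were 72.2%, 77.4%, 33.3% and 31.0% in the same order. Free RNA in droplets can give such counts, and its part in these shares was not tested. S1 was sorted and sequenced together with S3 and had a similar number of genes per nucleus. Its shares were 2.64% for *Nrp2*, 51.7% ± 12.7 for *Plekhg1*, 0.718% for *Dkk2* and 0.584% for *Col27a1*. *Nrp2* was found in 23.8% of S2 nuclei, from 5.17 to 88.7% over the libraries, and in 57.1% ± 22.7 of visceral nuclei. After thinning the shares of *Nrp2* were 9.36% in S2, from 0 to 21.1%, and 32.3% in visceral nuclei. *Dkk2* and *Col27a1* were found in 0.843% and 3.45% of S2 nuclei and in 0.787% and 4.17% of visceral nuclei. *Plekhg1* was found in 12.5% ± 6.23 of S2 nuclei. Taken as a combination, 3 or 4 of the markers were found in 1552 of 2241 S3 nuclei (69.25%), against 4 of 1528 S1, 8 of 1285 S2, 13 of 5613 visceral and 7 of 5375 interneuron nuclei. The share in S3 was 35.48% after thinning, and 16 S3 nuclei held none of the 4 genes.

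Genes that earlier work tied to gamma MNs did not all separate S3. Of 8 such genes, all above the filter on low values (10 CPM or more in at least 3 sums), 3 stood at least 1 log2 unit above the mean of S1 and S2, 1 stood at least 1 unit below, and the median difference was 0.69 against -0.02 over all 11465 genes kept. Over those genes 295 (2.57%) stood that far above and 338 (2.95%) that far below. *Esrrg*, an estrogen-related nuclear receptor, stood at 1752, 1968 and 2698 CPM in S3, at 1931 ± 272 CPM in S1 and at 1004 ± 210.3 CPM in S2, so S3 and S1 overlapped and both were above S2. *Htr1d*, a serotonin receptor gene, followed the same order with 100.4, 109 and 136 CPM in S3, 118 ± 19.6 CPM in S1 and 5.47 ± 9.31 CPM in S2. *Npas1*, a transcription factor of the basic helix-loop-helix family, was likewise at 61.7, 117 and 156 CPM in S3 and 119.7 ± 22 CPM in S1 but at 22 ± 26.9 CPM in S2. For these 3 genes the libraries of S3 and S1 overlapped, and those of S3 and S2 overlapped for *Npas1* only.

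*Creb5*, a leucine zipper transcription factor, behaved otherwise, with 1575, 1718 and 2064 CPM in S3 against 209 ± 51.7 CPM in S1 and 217 ± 68.5 CPM in S2. Among the other clusters V3 came next at 1221 ± 254 CPM. *Gfra1*, the co-receptor that binds GDNF, was highest in S3 in 9 of 9 libraries at 616, 728 and 957 CPM, although S1 (381 ± 57.5 CPM) and S2 (488 ± 135 CPM) were less than 1 log2 unit lower. *Wnt7a*, a secreted Wnt ligand, was low in S3 (7.90, 10.9 and 20.2 CPM) and higher in S1 (33.5 ± 10.0 CPM). *Stxbp6*, which encodes a SNARE-binding protein, ran the opposite way from its listing, with 3.22, 19.5 and 38.4 CPM in S3, 694 ± 57.0 CPM in S1 and 273 ± 66.6 CPM in S2.

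The alpha list held 12 genes, of which 11 passed the filter, and 5 of them stood at least 1 log2 unit lower in S3 than in the mean of S1 and S2. *Sv2b*, a synaptic vesicle glycoprotein gene, stood at 0, 8.44 and 13.3 CPM in S3 against 310.1 ± 88.5 CPM in S2. *Chodl*, a marker of fast alpha MNs, stood at 0, 1.07 and 3.70 CPM in S3 against 43.3 ± 30.3 CPM in S2. *Rbfox3*, which encodes the nuclear antigen NeuN, stood at 36.5, 65.4 and 83.1 CPM in S3, 35.8 ± 8.34 CPM in S1 and 229 ± 90.5 CPM in S2, so that S3 libraries lay below all of S2. The exception in the list was *Kcnq5*, a potassium channel gene that was higher in S3 than in the mean of S1 and S2 by 1.63 ± 1.22. Both genes listed for Type 3 MNs were lower in S3, with *Gpr149*, an orphan receptor gene, at 4.30, 15.7 and 25.04 CPM against 419.9 ± 28.0 CPM in S1.

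Of 7 genes listed as shared by skeletal MNs, 1 differed by 1 or more, *Tpd52l1*, at 1.23, 3.51 and 6.45 CPM in S3 against 103 ± 53.6 CPM in S2. *Tns1*, which encodes an adaptor between actin and focal adhesions, stood at 335, 393 and 441 CPM in S3, 400.3 ± 45.8 CPM in S1 and 354 ± 115 CPM in S2. *Chat*, the enzyme that makes acetylcholine, stood at 261, 289 and 332 CPM in S3, and the cholinergic list had 0 of its 4 measured genes at least 1 log2 unit away from S1 and S2. Neurofilament and cytoskeletal genes (9 of 10 measured, all kept) also had 0 past that distance, with a median of 0.25, and *Nefm* stood at 246, 555 and 669 CPM in S3 against 462 ± 120.2 CPM in S2. Markers of visceral MNs summed to 13.97 to 71.4 CPM in the S3 libraries, with their defining gene *Zeb2* at 1.04, 7.03 and 20.2 CPM in S3 against 698 ± 86.8 CPM in V1. Interneuron markers summed to 21.5 to 82.0 CPM, with *Pax2* at 0, 5.76 and 12.5 CPM in S3 against 380.0 ± 46.1 CPM in I7. *Mpped2* alone of these 9 genes stood at least 1 log2 unit above S1 and S2.

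Markers of glia were present at low levels and differed between the clusters. The 8 oligodendrocyte genes summed to 33.4 to 77.4 CPM in S3, 87.8 to 141 CPM in S1 and 65.8 to 155 CPM in S2, with *Mbp*, a myelin protein gene, lower in S3 at 17.6, 24.98 and 28.2 CPM. The 7 astrocyte genes summed to 69.6 to 115 CPM in S3, 39.1 to 90.8 CPM in S1 and 114 to 213 CPM in S2, and 6 microglia genes summed to 22.8 to 151 CPM in S3 with *Tmem119* at 0 in every S3 library. Endothelial genes summed to 3.29 to 6.38 CPM, excitatory neuron genes to 1.07 to 8.85 CPM and inhibitory neuron genes to 24.5 to 53.0 CPM in S3, of which *Gad2* stood at least 1 log2 unit above S1 and S2 at 9.06, 21.1 and 32.9 CPM. Besides *Mbp* and *Gad2*, 0 genes of these lists were that far from S1 and S2. The part of such RNA in the profile of S3 was not tested.

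Over all 11465 genes S3 was most like S1, with a Pearson correlation of mean log2 levels of 0.940 and 611 genes at least 1 log2 unit apart. S2 followed at 0.916 with 931 genes, the nearest visceral cluster was V5 at 0.889 with 1260 genes, and the lowest correlation was with I8 at 0.839. These correlations run across genes of the same libraries and are given as a description. S3 stood at least 1 log2 unit above both S1 and S2 for 201 genes and below both for 180. It was above S2 and within 1 unit of S1 for 172 genes and below S2 and within 1 unit of S1 for 368, whereas 89 genes were above S1 and within 1 unit of S2 and 131 were below S1 and within 1 unit of S2. S3 was the highest of the 21 clusters for 705 genes (6.15%), but by at least 1 log2 unit for only 37 of these 11465 genes, of which 29 held in every library.

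**Figure D2:**
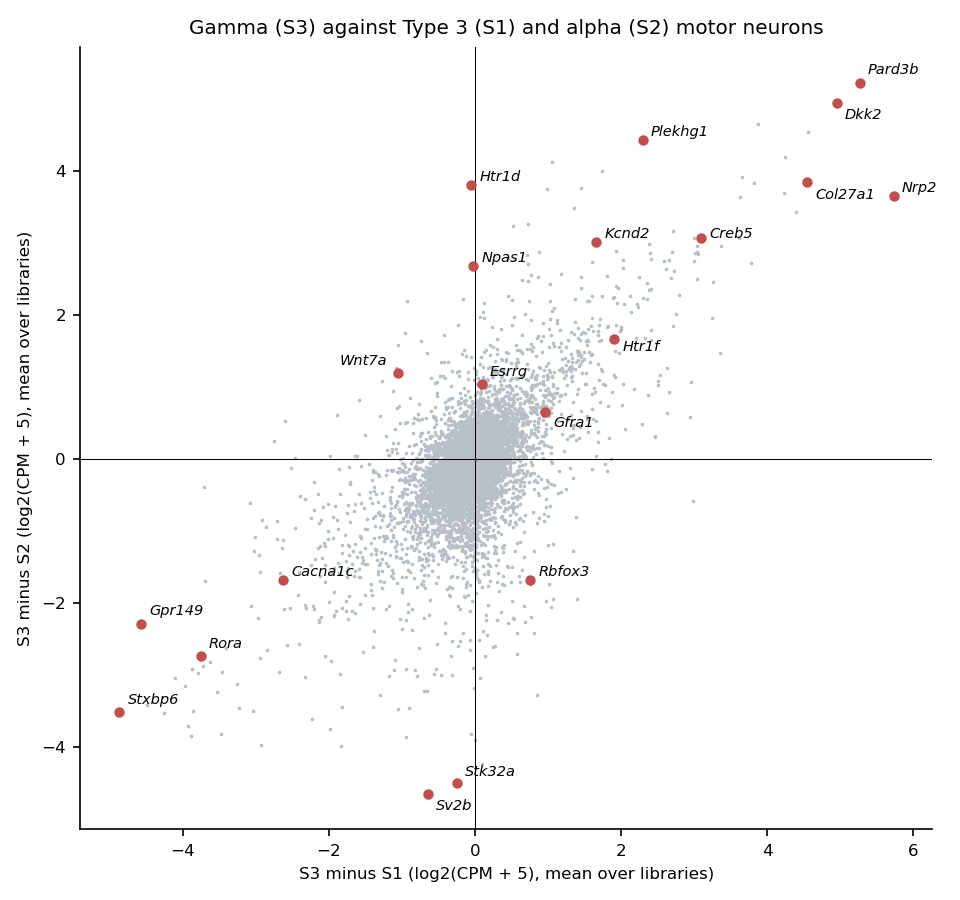
Difference of S3 from S1 (horizontal) and from S2 (vertical) in mean log2(CPM + 5) for the 11465 genes kept, a grey point for each gene and 20 genes named in red, with lines at 0. *Pard3b*, *Nrp2*, *Dkk2* and *Col27a1* lie far to the upper right, *Htr1d* and *Npas1* lie above 0 against S2 but at 0 against S1, and *Stxbp6* and *Rora* lie to the lower left.

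The genes with the largest excess over the next highest cluster, beside the markers, belonged to varied families. *1700030N03Rik*, a gene known by its clone name, came first at 59.7, 86.0 and 147 CPM in S3 with V1 next at 3.36 ± 4.72 CPM. *Arhgap31*, which encodes a GTPase-activating protein, stood at 132, 159.8 and 205 CPM in S3 and 28.2 ± 4.24 CPM in S1. *Cdk6*, a cyclin-dependent kinase gene, stood at 18.3, 36.6 and 53.3 CPM in S3 and 4.90 ± 2.41 CPM in S1. *Prkd1*, which encodes protein kinase D1, stood at 90.5, 133 and 157 CPM in S3, with I1 next at 28.8 ± 7.17 CPM. Each of these genes was higher in S3 than in any other cluster in 9 of 9 libraries, as the rule for naming them required.

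*Mthfd1l*, a mitochondrial folate enzyme gene, stood at 225, 255 and 315 CPM in S3 against 44.3 ± 6.69 CPM in S1 and 34.3 ± 11.3 CPM in S2. *Lgr5*, a receptor for R-spondins that raises Wnt signalling, stood at 579, 646 and 811 CPM in S3 against 215 ± 33.7 CPM in S1. *Hgf*, the hepatocyte growth factor gene, stood at 30.1, 41.6 and 93.8 CPM in S3 against 11.7 ± 7.57 CPM in S2, and it returns among the regional differences. *Bpifc*, *Acat3*, *Ap1m2* and *Hs3st3b1* completed the set at lower levels, with medians of 23.7 to 26.0 CPM in S3 and means of 3.14 to 7.86 CPM in the next highest cluster.

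Against the mean of S1 and S2 alone, the largest excess was that of *Pard3b*, a cell polarity gene on the same chromosome as *Nrp2* (chr1:61638824-62642284, plus strand), at 367, 592 and 709 CPM in S3, 10.7 ± 6.14 CPM in S1 and 15.5 ± 20.8 CPM in S2. *Klhl1*, which encodes a brain actin-binding protein, stood at 808, 998 and 1046 CPM in S3 against 41.4 ± 25.7 CPM in S1. *Adamts16*, a secreted metalloprotease gene, stood at 123, 189 and 255 CPM in S3 against 2.88 ± 2.23 CPM in S2. *Otof*, the calcium sensor otoferlin, stood at 147, 179 and 217 CPM in S3 against 4.32 ± 2.75 CPM in S1. *Pard3b*, *Klhl1* and *Otof* separated S3 from the other skeletal MNs only, since V7 (671.9 CPM), V1 (1516 CPM) and I1 (602 CPM) had more of them.

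The genes farthest below S1 and S2 held several signalling genes. *Sphkap*, an anchor for protein kinase A, stood at 8.62, 14.9 and 24.98 CPM in S3, 449 ± 91.5 CPM in S1 and 209.9 ± 37.3 CPM in S2. *Plch1*, a phospholipase C gene, stood at 5.997, 18.3 and 32.3 CPM in S3 and 416 ± 62.8 CPM in S1. *Gna14*, a G protein alpha subunit gene, stood at 0, 1.07 and 3.82 CPM in S3 and 94.4 ± 45.1 CPM in S2. *Prkcd*, which encodes protein kinase C delta, stood at 0.878, 2.23 and 10.7 CPM in S3 and 135 ± 25.5 CPM in S1. *Stxbp6*, *L3mbtl4*, *Crtac1*, *Ajap1*, *Galnt18* and *Eya4* completed the 10 lowest genes, whose differences ran from -4.19 ± 0.66 for *Stxbp6* to -3.45 ± 0.40 for *Eya4*. Each was lower in 9 of 9 libraries, as the rule for listing them required.

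Guidance receptors and ligands were on both sides. Of 25 semaphorin, plexin and neuropilin genes 19 passed the filter, 5 were higher by 1 or more, 4 were lower, and the median over all 25 was -0.05. *Sema3c*, a secreted class III semaphorin, stood at 342, 489 and 662 CPM in S3 against 21.4 ± 9.38 CPM in S1 and 39.2 ± 31.7 CPM in S2. *Sema6d*, a transmembrane semaphorin gene, stood at 290.2, 367 and 508 CPM in S3 against 38.5 ± 20.5 CPM in S1. *Nrp1*, the paralog of *Nrp2*, ran the other way with 34.3, 112 and 135 CPM in S3 against 584 ± 182 CPM in S2. *Sema3a*, a ligand of neuropilin-1, was lowest in S3 of all 21 clusters at 9.26, 17.6 and 36.9 CPM against 187 ± 72.1 CPM in S2. S3 thus held more *Nrp2* and *Sema3c* and less *Nrp1* and *Sema3a* than alpha MNs.

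Of 28 Wnt and Dickkopf genes, 8 passed the filter and *Dkk2* alone differed by 1 or more. In the GDNF family, *Ret*, the receptor tyrosine kinase that signals with Gfra1, was highest in S3 in 9 of 9 libraries at 179, 238 and 250.1 CPM against 82.4 ± 16.9 CPM in S1 and 83.6 ± 32.0 CPM in S2. *Gfra2*, the co-receptor that prefers neurturin, was lower in S3 at 3.12, 5.27 and 8.995 CPM than in S1 at 42.3 ± 11.4 CPM. *Gdnf* itself was near 0 in S3 at 0, 0.533 and 2.40 CPM. Of the 26 matrix genes 21 passed the filter with 3 higher and 3 lower, and *Col4a1* and *Col4a2*, the paired chains of basement membrane collagen, were higher together with *Col27a1*. *Col4a1* stood at 54.8, 96.9 and 118 CPM in S3 against 25.4 ± 8.49 CPM in S1.

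Of 41 monoamine, acetylcholine and peptide receptor genes 18 passed the filter, 4 were at least 1 log2 unit higher in S3 than in the mean of S1 and S2, 4 lower, and the median over all measured members was -0.02. *Htr1f*, an inhibitory serotonin receptor gene, stood at 778, 858 and 992 CPM in S3 against 235 ± 53.9 CPM in S1 and 277 ± 63.1 CPM in S2. *Htr2a*, an excitatory serotonin receptor gene, stood at 298, 406 and 543 CPM in S3 against 190.3 ± 43.4 CPM in S1 and 97.0 ± 36.9 CPM in S2. S3 was the highest of the library's clusters for both in 9 of 9 libraries. *Oprm1*, the mu opioid receptor gene, was also higher at 19.3, 36.4 and 62.5 CPM against 5.83 ± 2.94 CPM in S1. *Adra1a*, an alpha-1 adrenergic receptor gene, was lower at 3.51, 9.35 and 19.2 CPM against 171 ± 64.8 CPM in S2. *Trhr*, the receptor for thyrotropin-releasing hormone, was near 0 in S3 at 0, 1.21 and 4.16 CPM against 55.3 ± 22.8 CPM in S2.

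Among glutamate receptor genes 24 of 25 passed the filter, with 4 higher, 2 lower and a median of -0.01 over all 25. *Grm8*, an inhibitory metabotropic receptor gene, stood at 636, 817 and 1089 CPM in S3 against 342 ± 146 CPM in S1 and 174 ± 84.8 CPM in S2. *Gria1*, an AMPA receptor subunit gene, stood at 119, 217 and 490.4 CPM in S3 against 40.5 ± 24.8 CPM in S1. *Grm7*, the near relative of *Grm8*, was lower at 242, 459 and 787 CPM against 1530.2 ± 357 CPM in S2. In the GABA and glycine list (18 of 18 kept) 2 were higher and 3 lower. *Gabrb2*, a GABA-A subunit gene, stood at 110.3, 159 and 200.3 CPM in S3 against 43.6 ± 23.9 CPM in S2, and *Gabra2*, another such subunit gene, at 34.4, 73.2 and 124 CPM against 419.5 ± 142 CPM.

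Potassium channel genes were apart in both directions, 7 higher and 6 lower among 39 kept of 41, with a median of -0.31 over all 41. *Kcnd2*, a subunit of the fast inactivating A-type channels, stood at 2959.6, 3828 and 5779 CPM in S3 against 1414 ± 500.1 CPM in S1 and 562 ± 249 CPM in S2. *Kcnip1*, an auxiliary subunit of the same channels, was highest in S3 in 9 of 9 libraries at 706, 977 and 1159.8 CPM. *Kcnd3*, a paralog of *Kcnd2*, was lowest of all 21 clusters at 10.7, 18.3 and 26.3 CPM against 97.2 ± 47.0 CPM in S2. *Kcnk3*, which encodes the leak channel TASK-1, was highest in S3 in 9 of 9 libraries at 104, 126 and 147 CPM against 36.5 ± 9.30 CPM in S2. The A-type pore genes thus ran in opposite directions, while a leak channel gene was on the higher side.

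*Kcnn3*, a calcium-activated potassium channel gene, was lower in S3 at 31.8, 36.0 and 50.1 CPM against 148 ± 46.7 CPM in S2. *Kcnb2*, a delayed rectifier gene, stood at 160.2, 221 and 307 CPM in S3 and 216 ± 71.2 CPM in S1 against 1145 ± 358 CPM in S2. Of 26 calcium, sodium and HCN channel genes, 25 passed the filter with 1 higher and 3 lower. *Cacna1c*, a pore subunit of L-type calcium channels, was lowest in S3 of all 21 clusters at 135, 173 and 286 CPM against 1199.7 ± 248 CPM in S1 and 613 ± 98.2 CPM in S2. *Cacna1d*, another L-type subunit gene, was lower as well at 267, 316 and 374 CPM against 824 ± 133 CPM in S2. *Cacna1g*, a T-type subunit gene, was near 0 in S3 at 0, 2.13 and 5.20 CPM. *Cacna2d1*, an auxiliary subunit gene, was the member on the higher side at 1178, 1584 and 2072 CPM against 302 ± 282 CPM in S2.

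**Figure D3:**
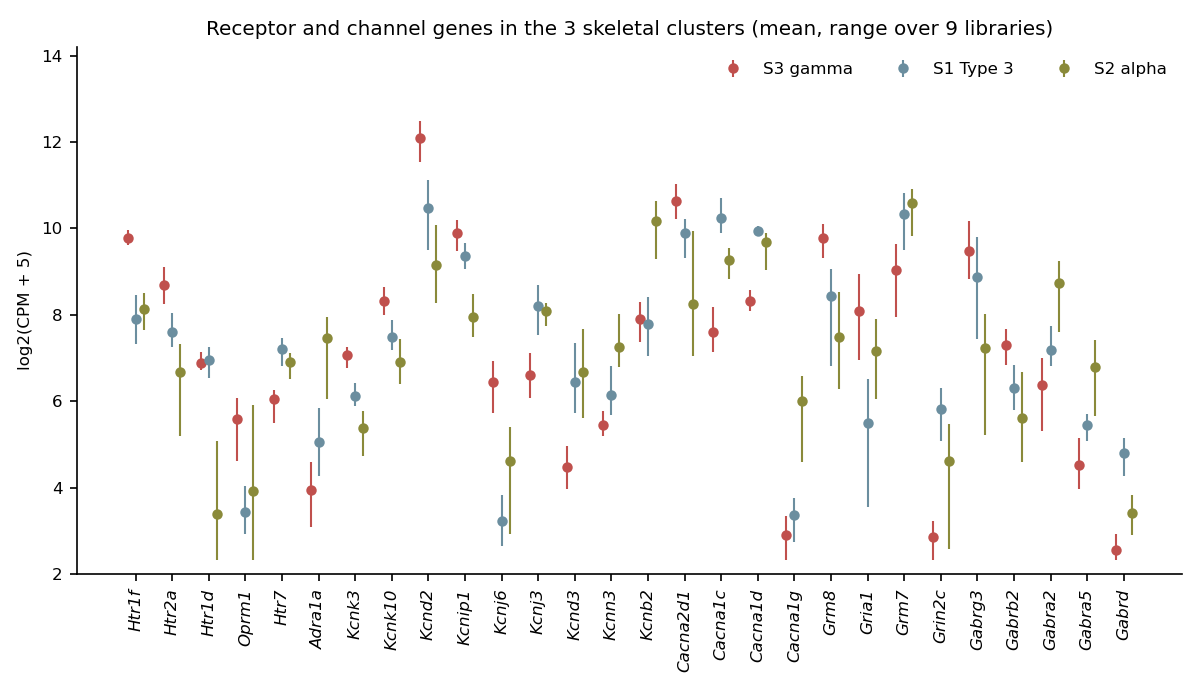
Levels of 28 receptor and channel genes (log2(CPM + 5), a log axis that starts at 2) in S3, S1 and S2, with a point at the mean and a line over the range of the 9 libraries. *Htr1f*, *Htr2a*, *Kcnd2* and *Kcnk3* have S3 above S1 and S2, and *Cacna1c*, *Cacna1d*, *Adra1a* and *Kcnn3* have S3 below.

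Of 48 transcription factor genes 41 passed the filter, 8 were higher by 1 or more, 5 lower, and the median over all 48 was 0.07. *Ppargc1a*, the coactivator PGC-1alpha that partners estrogen-related receptors, was highest in S3 in 9 of 9 libraries at 227, 259.9 and 286 CPM against 123 ± 13.9 CPM in S1 and 59.2 ± 12.2 CPM in S2. *Esrrb*, a paralog of *Esrrg*, stood at 160.1, 213 and 276 CPM in S3 and 182 ± 35.9 CPM in S1 against 59.1 ± 22.3 CPM in S2. *Tshz2*, a zinc finger gene, stood at 1002, 1080.4 and 1420.2 CPM in S3 against 169 ± 31.6 CPM in S1. *Pbx3*, a homeobox cofactor gene, stood at 373, 439 and 537 CPM in S3 against 119 ± 112 CPM in S2. On the lower side, *Rora*, a nuclear receptor gene, stood at 674, 872 and 1219 CPM in S3 against 12045 ± 1638 CPM in S1 and 6007 ± 1300.4 CPM in S2. Hox genes (31 listed, 23 measured, 9 kept) had 0 members at that distance from S1 and S2. Of 8 immediate early genes 3 passed, with *Jun* higher and *Nr4a1* lower in S3.

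Because the estrogen-related receptors bind the letters TCAAGGTCA, this motif and its core AAGGTCA were searched on both strands of RefSeq promoter windows (GRCm38.p6, from 250 bases before to 50 bases after the gene start); the core is contained in the longer motif. A window was found for 151 of the 201 genes higher in S3 than in both S1 and S2, and 5 of them (3.31%) held AAGGTCA and 0 held TCAAGGTCA. The shares over all 27025 windows were 5.38% and 0.466%, and over the genes kept they were 3.71% and 0.257%. None of the 4 marker windows held either motif, which says only that these letters are not in these windows. *Sema5a* was the semaphorin gene among the 5 matches.

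S3 nuclei also differed among themselves. Ranked by variance over mean against genes of a like level within each library, the 10 most variable of 6777 genes were led by *Cntn5*, a contactin adhesion gene with a mean rank of 14.6 over the libraries. The 10% of S3 nuclei with most *Cntn5* held 59.8% ± 12.4 of its counts (SD, n = 9), and 40.6% ± 15.1 of S3 nuclei had at least 1 count. *Kcnq5*, *Adarb2*, *Erbb4*, *Unc5d*, *Gpc5*, *Sox6*, *Mgat4c*, *mt-Co3* and *Gm11728* were the other genes. For each of these genes except *Gm11728* another cluster had a higher mean level than S3, as for *Cntn5* with I3 at 6143 CPM, *Adarb2* with I8 (13462 ± 2523 CPM) and *Gpc5* with I2 at 6353 CPM, and RNA from such nuclei in the S3 droplets was not tested. Of the markers, *Dkk2* was the most uneven with a mean rank of 42.1 and 46.1% ± 6.85 of its counts in the top 10% of nuclei, *Col27a1* followed at rank 155, and *Plekhg1* and *Nrp2* ranked at 3058 and 3582.

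The first regional question was whether S3 makes up a different share of cholinergic nuclei, or of skeletal MN nuclei, along the cord. Cholinergic nuclei include visceral MNs and interneurons, and the visceral share also differed between libraries. Of all cholinergic nuclei S3 was 12.1, 7.76 and 17.3% in cervical libraries 1 to 3, 6.83, 19.6 and 7.18% in the thoracic libraries and 15.3, 19.6 and 16.2% in the lumbar/sacral libraries. The means were 12.4% ± 4.75, 11.2% ± 7.29 and 17.0% ± 2.24 (SD, n = 3 each), and with all 9 libraries the regions overlapped. An exact permutation test of the between-region sum of squares, which has no direction, gave p = 0.407 over 1680 assignments, whose smallest possible p is 0.00357. Without both male rostral libraries the means were 14.7% ± 3.61 (n = 2), 7.0% ± 0.248 (n = 2) and 17.0% ± 2.24, with p = 0.0571 by the exact test over 210 assignments. Of the libraries then left, the thoracic ones (6.83 and 7.18%) lay below all cervical (12.1 and 17.3%) and lumbar/sacral ones.

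Of skeletal MN nuclei S3 was 35.0, 34.9 and 42.0% in the cervical libraries, 39.5, 49.9 and 51.3% in the thoracic libraries and 48.8, 57.5 and 39.5% in the lumbar/sacral libraries. The Clopper-Pearson 95% intervals, which cover counting error only, were 27.7 to 42.7% in the library labelled cervical 2 with 58 of 166 nuclei and 53.4 to 61.5% in lumbar/sacral 2 with 346 of 602 nuclei. The means of 37.3% ± 4.02, 46.9% ± 6.46 and 48.6% ± 9.0 overlapped (exact permutation test, p = 0.186). Without both male rostral libraries the exact p was 0.438. The nuclei were sorted before sequencing, and the part of the sort in these shares was not tested.

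**Figure D4:**
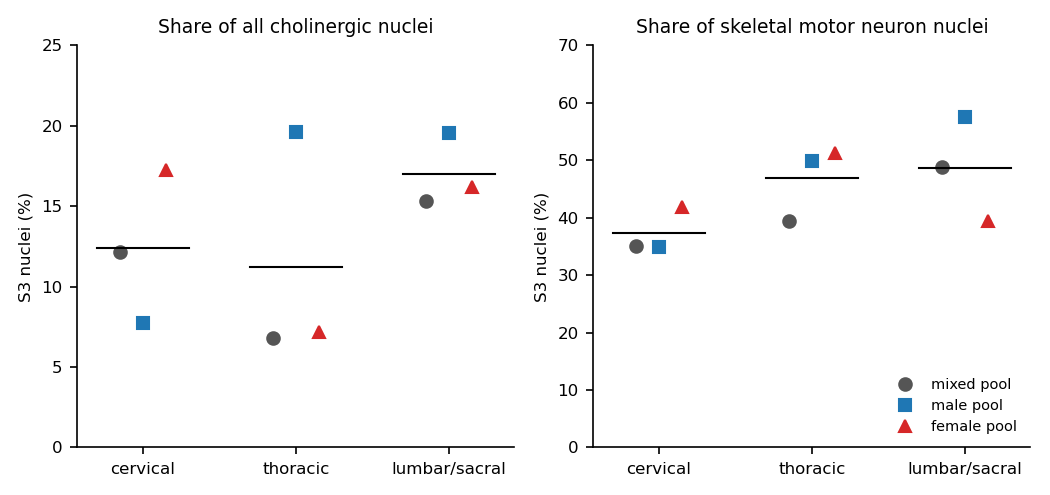
Share of S3 among cholinergic nuclei and among skeletal MN nuclei (percent, axis from 0) in the 9 libraries by region, with a point for each library marked by pool and a line at the mean of each region. Cholinergic shares run from 6.83% to 19.6% within the thoracic region, and with all 9 libraries the regions overlap in both panels. Without the male cervical and thoracic points, the thoracic cholinergic shares lie below those of the other regions.

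The second question was which genes differ along the cord within S3. Lumbar/sacral S3 was compared with the mean of cervical and thoracic S3 by limma on log2(CPM + 5), with a call at an adjusted p under 0.05 and a difference of 1 or more. Of 9841 genes tested 5 were called (0.0508%), 3 higher and 2 lower in lumbar/sacral S3, and 579 had an unadjusted p under 0.05. The median difference over all genes was 0.14, and p-values measure the spread between libraries made from pools of mice. None of the 5 genes had a lumbar/sacral library overlapping a rostral one, which also held for 422 of the 9841 genes tested (4.29%).

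*Hoxd11* (chr2:74679557-74687016, plus strand), a posterior Hox gene, stood at 42.1, 47.9 and 40.8 CPM in lumbar/sacral S3 of pools 1 to 3 and at 0 in all 6 rostral libraries. Against a floor of 3 counts over the rostral sums of 10947512 corrected counts, it was at least 159-fold higher (limma, adjusted p = 0.000464). *Hoxd11* passed the filter on low values through its lumbar/sacral libraries alone. With no filter its adjusted p was 0.000107 (limma). The gene followed the same order in S1, at 19.0, 21.7 and 23.4 CPM in the lumbar/sacral libraries and 0 in the rostral ones. *Mctp2*, which encodes a calcium-binding membrane protein, stood at 83.1, 49.5 and 60.6 CPM in lumbar/sacral S3 against 6.06, 10.99 and 12.9 CPM in the lowest, median and highest rostral library. Its difference was 2.16 ± 0.21 on the log2 scale (SE, limma, adjusted p = 0.00852). *Mctp2* was also higher in lumbar/sacral than in rostral libraries in the other skeletal clusters, and at higher levels than in S3. Its means were 120 ± 36.1 against 40.3 ± 10.3 CPM in S1 and 136 ± 53.5 against 36.8 ± 21.8 CPM in S2 (SD over libraries). *Hgf* stood at 93.8, 80.4 and 85.8 CPM against 30.1, 32.3 and 43.9 CPM, a difference of 1.20 ± 0.15 (limma, adjusted p = 0.0363).

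*Sox5*, a transcription factor gene, was lower at 92.7, 88.9 and 76.8 CPM in lumbar/sacral S3 against 171, 213 and 249 CPM in the lowest, median and highest rostral library, a difference of -1.25 ± 0.13 (limma, adjusted p = 0.00852). *Kcnc2*, a gene for fast Kv3 potassium channels (chr10:112271121-112467024, plus strand), stood at 121, 74.4 and 101 CPM against 190, 238 and 293 CPM, a difference of -1.26 ± 0.17 (limma, adjusted p = 0.0484). Since the regions of the 5 genes did not overlap, the lumbar/sacral library of each of the 3 pools also lay on the same side of both rostral libraries. Without both male rostral libraries 3 genes were called, *Hoxd11*, *Mctp2* and *Sox5*. With the pool as a replicate block 8 were called, the 5 and *Kcnq5*, *Pcdh11x* and *Epha6*, all of these lower in lumbar/sacral S3. Leaving out lumbar/sacral library 1, 2 or 3 left 0 calls, with the adjusted p of *Mctp2* at 0.0652 to 0.159. The differences there were 1.98 to 2.32 for *Mctp2*, 1.15 to 1.25 for *Hgf*, -1.31 to -1.18 for *Sox5* and -1.41 to -1.08 for *Kcnc2*. *Hoxd11*, at 0 in the rostral sums, cannot reach 10 CPM in 3 sums with 2 lumbar/sacral libraries and was not tested there. Thinning every nucleus to 3200 counts left 2 calls (*Hoxd11* and *Sox5*), with *Mctp2* at 2.20, *Hgf* at 1.24 and *Kcnc2* at -1.31.

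**Figure D5:**
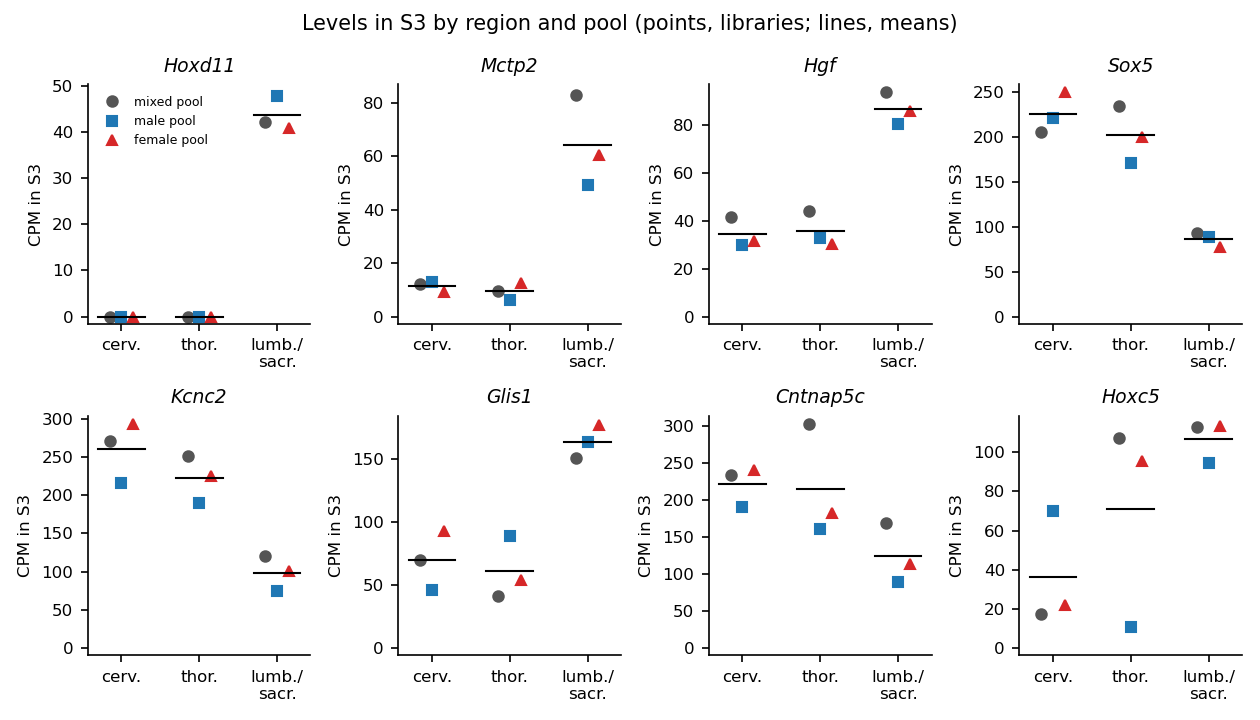
Levels in S3 (CPM, linear axis) of 8 genes by region, with a point for each of the 9 libraries marked by pool and a line at the mean of each region. The 3 lumbar/sacral points lie apart from the 6 rostral points for *Hoxd11*, *Mctp2*, *Hgf*, *Sox5*, *Kcnc2* and *Glis1*, and the male points of *Hoxc5* run against those of the other pools in cervical and thoracic cord.

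Of the genes on the lists described for the profile, *Hoxd11* and *Kcnc2* were the only ones called between lumbar/sacral and rostral S3, and the 4 markers of S3 did not pass the test. *Plekhg1* stood at 476, 409 and 417 CPM in lumbar/sacral S3 against 487 to 741 CPM in rostral S3, a difference of -0.40 ± 0.12 (limma, adjusted p = 0.598), and *Nrp2*, *Dkk2* and *Col27a1* had adjusted p-values of 0.875, 0.816 and 0.993. Between cervical and thoracic S3, 0 of 9841 genes (0%) were called by limma, 303 had an unadjusted p under 0.05, and the lowest adjusted p was 0.935. Without both male libraries 2 genes were called, *Hoxc5* at a cervical minus thoracic difference of -2.11 ± 0.17 (limma, adjusted p = 0.0247) and *Sorcs3*, a sortilin family receptor gene, at 2.30 ± 0.23 (limma, adjusted p = 0.0463).

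Whether the lumbar/sacral difference was particular to S3 was tested against the same difference in S1 and S2, by the interaction in limma over 11465 genes. There 3 genes were called (0.0262%), 401 had an unadjusted p under 0.05, and *Hoxd11* (adjusted p = 0.56), *Mctp2* (0.999), *Hgf* (0.999) and *Kcnc2* (0.721) were not among them. *Glis1*, a zinc finger transcription factor gene, stood at 150, 163 and 177 CPM in lumbar/sacral S3 against 41.3, 61.9 and 92.6 CPM in the lowest, median and highest rostral S3 library. In S1 it stood at 30.6, 35.6 and 33.9 CPM in lumbar/sacral libraries and 25.01 to 30.3 CPM in rostral ones. The lumbar/sacral minus rostral differences were 1.31 in S3, 0.22 in S1 and -0.16 in S2, and the interaction was 1.28 ± 0.23 (limma, adjusted p = 0.0370). *Cntnap5c*, a contactin-associated protein gene, stood at 169, 89.7 and 113 CPM in lumbar/sacral S3 against 161, 212 and 303 CPM in rostral S3. Its regions overlapped in S3 as well as in S1 and S2. The differences were -0.81 in S3, -0.06 in S1 and 0.53 in S2, so that the interaction of -1.04 ± 0.15 (limma, adjusted p = 0.0125) reached the size of 1 through S2 and not against S1 alone.

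*Adgrl4*, an adhesion receptor gene best known from endothelium, was called at low levels, with 23.4, 12.1 and 14.99 CPM in lumbar/sacral S3 against 2.55, 3.61 and 6.24 CPM in rostral S3 and an interaction of 1.30 ± 0.24 (limma, adjusted p = 0.0370). *Adgrl4* passed the filter on low values through lumbar/sacral S3 alone, and with no filter it was not called. The 3 endothelial markers measured, none of which passed the filter, summed to no more than 6.38 CPM in any S3 library. The part of endothelial RNA in the *Adgrl4* difference was not tested. *Sox5* passed the adjusted p with an interaction of -0.79 ± 0.13 (adjusted p = 0.0242) but not the size of 1. The number of calls varied widely between settings. With the pool as a replicate block there were 10, without both male rostral libraries 14, and without the library labelled cervical 2, whose S2 nuclei stood apart, 17, all 3 sets holding *Glis1* and *Cntnap5c*. Scaling by the median of ratios, thinning, or leaving out any lumbar/sacral library left 0 calls. Under the median of ratios the interactions were 1.24 for *Adgrl4*, 1.25 for *Glis1* and -1.08 for *Cntnap5c*, and after thinning 0.98, 1.27 and -1.44. Without a lumbar/sacral library they were 1.16 to 1.42 for *Glis1* and -1.15 to -0.91 for *Cntnap5c*, while *Adgrl4* did not pass the filter on low values and was not tested.

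S3 of males and females was compared between pools 2 and 3 over 9573 genes. There was 1 pool of mice for each sex, and the 3 libraries of a sex are regions of the same 4 mice, so sex and pool cannot be told apart. Region was in the model, so the p-values measure how far the male minus female difference varied between regions. The labels were used as given for the male cervical and thoracic libraries that went against them, and the test was not run without both. By adjusted p alone 3 genes were called (0.0313%), and 1078 had an unadjusted p under 0.05. *Xist*, which silences an X chromosome in females, stood at 0, 1.60 and 2.41 CPM in the male cervical, thoracic and lumbar/sacral libraries and at 672, 638 and 528 CPM in the female ones (male minus female -6.62 ± 0.21, limma, adjusted p = 0.00465). Values of 308, 294 and 272 CPM in the mixed pool lay between them. The other calls were the Y-linked *Uty* at 4.52 ± 0.16 and *Eif2s3y* at 4.35 ± 0.17 (limma, adjusted p = 0.00465 and 0.00589). None of the 4 markers was called, and *Dkk2* stood at 231, 239 and 152 CPM in males against 188, 119 and 95.4 CPM in females, a difference of 0.64 ± 0.16 (limma, adjusted p = 0.409). Leaving out cervical library 2 or 3 raised the calls to 1036 and 1187, and leaving out any other male or female library left 0 or 1, so the count rests on single libraries. Each such fit left 1 library in a region, so that region held no male minus female difference. These counts are therefore no measure of how many genes differ by sex. Without a male library *Uty* and *Eif2s3y*, and without a female one *Xist*, did not pass the filter on low values and were not tested.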

How the data were processed

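Nuclei were sorted from 12 mice in 3 pools and sequenced by droplet 3′ chemistry as 9 libraries. Per the labels, submitters' processing notes name Cell Ranger (3.1.0), Seurat, DESeq2 and mm10; the study's methods describe a reference that includes introns, removal of nuclei by gene number and mitochondrial share, and SCTransform. The deposited matrix holds depth-corrected whole-number counts, which were treated as a score because the authors had already adjusted them for depth, so no count model was run on them. The cluster and type names are those of the authors. Of the deposited tables, the matrix of cholinergic nuclei and the annotation were used.

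For each library and cluster the corrected counts of its nuclei were added up (at least 10 nuclei), scaled to CPM and taken as log2(CPM + 5). Genes at 10 CPM or more in at least 3 sums were kept. Clusters were compared by differences within libraries, without tests. Regions, sexes and their interactions were tested by limma (3.58.1, R 4.3.3) with an intensity trend and Benjamini-Hochberg adjustment over all genes tested, and shares by exact permutation tests (scipy 1.17.1). On simulated data with 200 genes changed by 1.5 log2 units, the regional test recovered 96% of them, the interaction test 97.5% and the sex test 99%, and of the genes called 0%, 1.02% and 7.04% were false. The simulated libraries varied independently, with no deviations shared within a pool, and the changed genes were drawn from those at higher levels. These rates therefore need not hold for the real libraries or for genes at low levels. Doublets were called with Scrublet (scanpy 1.11.5) and kept. Gene coordinates are GRCm38.

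Same-numbered libraries came from the same mice, so the pool was tried as a replicate block. Their deviations from the region means correlated at -0.22 to 0.83, and those of other pairs at -0.77 to 0.54. Deviations from a mean of 3 libraries cancel out within a region, so other pairs are pushed below same-numbered ones in part by arithmetic. The region means used the labels as given.

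Named genes were the 4 markers, 28 gene lists, the 15 genes with the largest excess of S3 over the next cluster, the 10 farthest above and below S1 and S2 (20 CPM or more, same sign in every library), the called genes, and the 10 most variable within S3. The 15 genes also had to reach 20 CPM in S3 and to be highest in S3 in every library. A gene list among those summed is not reported here. The members and lists were chosen with earlier results of these data known, and both the removal of the male rostral libraries and the merging of rostral regions were chosen after seeing the data.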

Additional observations from a re-analysis of the deposited data

Results flagged for a closer look

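In S2 of the library labelled cervical 2, marker sums lay far from those of the other 8 libraries. The skeletal MN markers summed to 240.43 CPM against 966 to 1282 CPM, the visceral MN markers to 276.74 CPM and the cholinergic interneuron markers to 264.97 CPM. For each sum the gap to the nearest library was more than 0.493 of the whole range (0.696, 0.813 and 0.718). About 1 such gap in 20 groups arises by chance, and 25 groups of values were examined. S3 of the same library was not apart in these sums.

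The lumbar/sacral difference of 3 genes was another in S3 than in S1 and S2 by the interaction test in limma, at 1.304 for *Adgrl4*, 1.282 for *Glis1* and -1.045 for *Cntnap5c* on the log2 scale (adjusted p = 0.0370, 0.0370 and 0.0125). Of these, *Adgrl4* passed the filter on low values through lumbar/sacral S3 alone.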

How the results depend on the processing

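The differences from S1 and S2 were stable, with 290 to 302 genes higher and 325 to 363 lower by 1 or more when each library was left out in turn. A pseudocount of 1 raised the lower count to 526 and the higher one to 396, and without both male rostral libraries they were 361 and 291. No result reversed its direction under any alternative run.

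Of the 5 lumbar/sacral calls, 3 were left under scaling by the median of ratios, which brought the median of all genes from 0.14 to -0.0015, 2 under a pseudocount of 1, 2 after thinning, and 3 without both male rostral libraries. No filter on low values gave 9, the replicate block 8, and rostral regions merged with the replicate block 8. Leaving out each library in turn gave 0 to 4. Cervical against thoracic gave 2 calls without both male libraries and 0 under the other alternatives run.

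Of the 3 interaction calls, 0 were left under the median of ratios, thinning, and merged rostral regions, 0 genes were called under a filter of 10 corrected counts in every sum, which none of the 3 passed, and 1 gene was called under a pseudocount of 1 and 1 with no filter. The replicate block gave 10, merged rostral regions with the replicate block 7, and the removal of both male libraries 14. Leaving out each library in turn gave 0 to 17. The 3 sex calls became 6 under the median of ratios (adding *Tsix*, *Kdm5d* and *Ddx3y*), and 0 to 1187 genes were called with each library left out, where the cause was not tested. The filter of 10 corrected counts in every sum gave 0, since *Xist*, *Uty* and *Eif2s3y* are near 0 in the libraries of 1 sex and cannot pass it. The causes of the other changes were not tested. With a block for the pool, the exact permutation p for the share of S3 was 0.528 of cholinergic and 0.278 of skeletal MN nuclei; leaving out each library gave 0.0679 to 0.646 and 0.075 to 0.346. The block changed no other call.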
